A study of Drosophila melanogaster with 2 samples.

Results

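The 33 genes described here act in germ cells, in the storage, transport and translation of maternal mRNA, and in the piRNA pathway of Drosophila melanogaster. They were taken by name from the Ensembl annotation, where all 33 matched a protein-coding gene, out of 13945 protein-coding genes on the 6 chromosome arms 2L, 2R, 3L, 3R, 4 and X. Binding was mapped by chromatin immunoprecipitation and sequencing (ChIP-seq) of CG7786, a predicted basic leucine zipper (bZIP) factor of the PAR type. The chromatin came from whole embryos aged 0 to 24 hours, of both sexes, from a transgenic fly line that stably expresses CG7786 with GFP (eGFP) at its C-terminus. The 2 libraries, biological replicates 2 and 3, form 1 group, and no second condition was compared. The labels name an anti-GFP antibody in the description and CG7786 in the antibody field, and do not settle which was used. Per the labels, chromatin was sonicated to fragments of 200 to 800 bp. Such embryos hold every tissue and stage, so a peak cannot be placed in germ cells or in somatic cells. The replicates have separate biosample records, and nothing more in the labels says how independent they were. Peak lists hold no expression values, so the tissue could not be checked against marker genes, and read depth is unknown.

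Germ cells of the fly form at the posterior pole of the embryo, where germ plasm built during oogenesis gathers proteins and mRNAs that commit cells to the germline. Maternal mRNAs are carried and anchored in the oocyte, held silent or translated in place by RNA-binding proteins, and cleared when the zygotic genome takes over. The piRNA pathway loads short RNAs onto Piwi-type Argonaute proteins, which silence transposons in the gonad. Many of the 33 genes are best known from the ovary, and several, such as brat, pum and Sxl, also act in somatic tissues.

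The authors' list of reproducible peaks, from the irreproducible discovery rate procedure (IDR), held 4045 peaks on build dm6. A peak was assigned to a gene where its summit lay in the gene body or the 2000 bp upstream (the span), or within 500 bp of any of its transcription start sites (TSSs). By this rule 28 peaks fell to 16 of the 33 genes. The 200 bp around 6 of these summits, printed on the plus strand of dm6 from the Release 6 genome sequence, show what the binding regions look like. They are the strongest peaks of brat (chr2L:19165050-19165249), swa (chrX:6366406-6366605) and Sxl (chrX:7096533-7096732), all without a match to any motif searched, and the windows of 3 genes that held one. Capitals mark the match: in the BicD intron (chr2L:17466380-17466579) the PAR bZIP site TTATGTAA read on the minus strand, and upstream of ovo (chrX:5046671-5046870) and in the orb intron (chr3R:23279943-23280142) the GAGA repeat GAGAGAG, also on the minus strand. Windows that overlap an annotated UTR, such as that of nanos, are not shown.
brat: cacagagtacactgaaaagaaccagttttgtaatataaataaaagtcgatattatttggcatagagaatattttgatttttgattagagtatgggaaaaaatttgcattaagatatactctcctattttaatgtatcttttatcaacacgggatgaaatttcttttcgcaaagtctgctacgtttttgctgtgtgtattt
swa: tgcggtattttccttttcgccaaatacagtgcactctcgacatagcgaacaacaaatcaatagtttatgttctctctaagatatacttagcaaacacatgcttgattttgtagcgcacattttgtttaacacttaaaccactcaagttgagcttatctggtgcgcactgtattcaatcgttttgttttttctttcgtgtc
Sxl: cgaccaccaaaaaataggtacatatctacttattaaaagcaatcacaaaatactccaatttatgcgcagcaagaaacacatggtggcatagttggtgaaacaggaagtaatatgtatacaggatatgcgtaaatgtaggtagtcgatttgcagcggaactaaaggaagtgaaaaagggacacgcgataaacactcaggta
BicD: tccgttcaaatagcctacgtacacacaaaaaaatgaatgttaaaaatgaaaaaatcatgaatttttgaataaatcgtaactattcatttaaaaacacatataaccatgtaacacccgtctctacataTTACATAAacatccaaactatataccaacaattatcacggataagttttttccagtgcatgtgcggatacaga
ovo: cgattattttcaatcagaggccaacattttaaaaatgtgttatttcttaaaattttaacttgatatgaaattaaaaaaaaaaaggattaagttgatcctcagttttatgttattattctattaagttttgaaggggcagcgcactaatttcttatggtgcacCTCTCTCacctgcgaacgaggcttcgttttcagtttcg
orb: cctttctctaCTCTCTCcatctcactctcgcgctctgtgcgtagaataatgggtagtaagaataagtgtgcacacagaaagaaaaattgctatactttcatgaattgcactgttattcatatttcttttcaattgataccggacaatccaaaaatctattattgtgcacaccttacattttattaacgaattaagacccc

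Of the 33 genes, 8 had an IDR peak within 500 bp of a TSS (24.2%), beside 2715 of 13945 protein-coding genes (19.5%). They were tud, nanos, Sxl, smg, exu, egl, orb and brat. In the span, 16 genes had a peak (48.5%), against 27.7% of all protein-coding genes. No test was made, because there is 1 group of 2 libraries and the genes were picked with earlier results of these data known. Longer spans and more TSSs leave more room for a peak, so shares are also given by size. The median span of the 33 genes was 8711 bp, and that of all protein-coding genes 4166 bp. Among genes with long spans (5534 bp or more), 14 of 22 members (63.6%) and 42.3% of all such genes had a peak. With spans of 3466 to 5533 bp, 2 of 10 members (20%) had one, beside 25.5% of all, and the 1 member with a shorter span had none. Over the joined member spans of 777004 bp there were 3.60 peaks per 100 kb, and 3.02 over the 6 arms. The arms also take in sequence outside any gene span, so these are unlike regions. The density over the spans of all protein-coding genes was not computed. By the number of TSSs, 2 of 15 members with 1 TSS had a TSS peak (13.3%, against 14.9% of all such genes), 3 of 13 with 2 to 3 TSSs (23.1% against 29.8%) and 3 of 5 with more (60% against 49.1%).

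**Figure D1:**
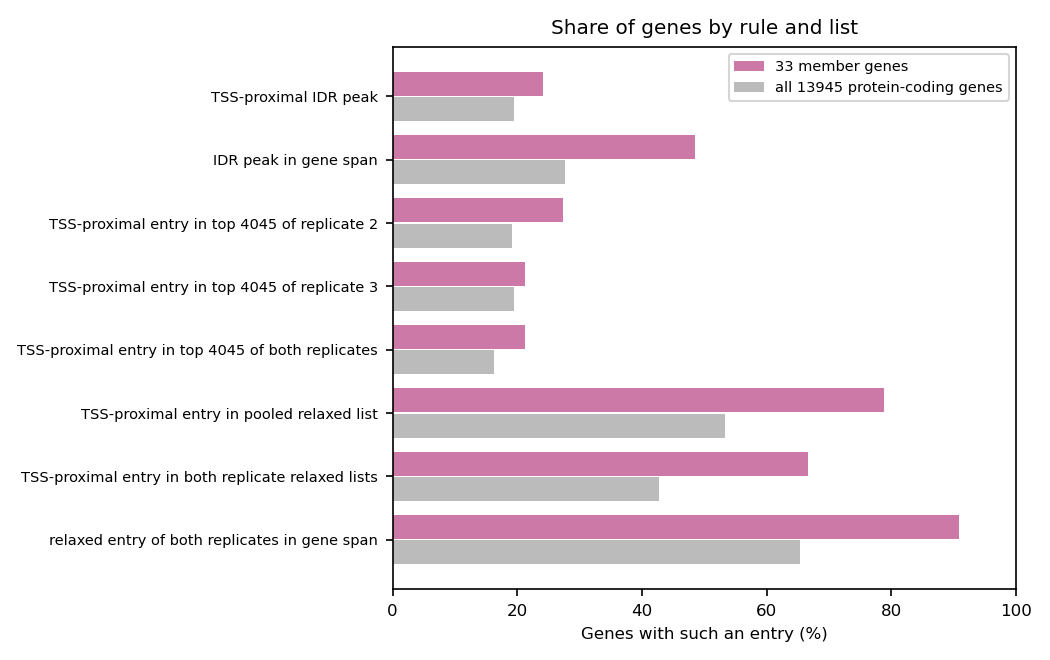
Share of genes with an entry (percent, horizontal axis) under each rule, for the 33 germline and maternal genes (upper bar of each pair) and all 13945 protein-coding genes (lower bar); bars are counts of genes and carry no error. The pairs lie closest for TSS peaks in the top 4045 of replicate 3 (21.2% and 19.4%) and farther apart for the relaxed lists.

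Of the 8 germ plasm and primordial germ cell genes, 2 had a TSS peak and 3 a span peak, where 19.5% and 27.7% of all protein-coding genes had one. The role groups hold 2 to 8 genes each, and none was tested against those shares. The spans of vas, tud and gcl are 5534 bp or more, a class where 42.3% of all genes had a span peak. The other spans of this group are shorter, with 25.5% in the class of 3466 to 5533 bp and 15.3% below it. nanos, whose product represses translation at the posterior pole and in germ cells, had the strongest of this group, at chr3R:19156674-19157077. Its summit lay 362 bp upstream of the nanos TSS, with a signal value of 198.7, the authors' score on the pooled data. It ranked 981 in the pooled list, 778 in replicate 2 and 1309 in replicate 3. The same summit lay 64 bp from the TSS of CG11779 and inside that gene, so the peak sits closer to the neighbour. tud, which encodes the founding Tudor-domain scaffold of germ plasm, had a weak peak 97 bp upstream of its TSS (chr2R:21183023-21183426, 85.2), ranked 3701 in the pool, 3512 in replicate 2 and 3887 in replicate 3. The tRNA genes tRNA:Gly-GCC-1-13 and tRNA:Trp-CCA-2-6 start 369 and 476 bp from the same summit, and no other protein-coding TSS is nearer than 4106 bp.

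vas, the germline DEAD-box helicase, had a peak of 91.8 upstream (chr2L:15060642-15061045), 812 bp from its own TSS and 87 bp from that of TfIIS, a transcription elongation factor gene. It ranked 2398 in replicate 2 but 5103 in replicate 3, outside the 4045 strongest there. The other 5 genes of the group had no IDR peak in their span. osk, whose product starts germ plasm assembly, had no entry within 500 bp of its TSS in the pooled list or in either replicate list of 30000 entries, and the nearest IDR summit lay 3006 bp away, 224 bp from a TSS of pyd. For gcl, a regulator of germ cell formation, the strongest TSS entry fell short of the IDR list at rank 5660 in the pool, 6218 in replicate 2 and 6339 in replicate 3. vls and csul, which encode the partners of an arginine methyltransferase complex that modifies Tudor ligands, and pgc, which holds transcription silent in pole cells, had no TSS entry above rank 9892 in any list.

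None of the 7 piRNA pathway genes had an IDR peak within 500 bp of a TSS, where 19.5% of all protein-coding genes had one, and 1 had a span peak (27.7% of all). The spans of krimp (4620 bp) and tej (4251 bp) fall in the class of 3466 to 5533 bp, where 25.5% of all genes had a span peak. The other spans of the group are 5534 bp or more, where 42.3% did. The only span peak of the group, at armi (chr3L:3460553-3460956, 126.8), lay 562 bp upstream of the armi TSS and 152 bp from that of eIF5B, a translation initiation factor gene, inside whose body it falls. armi encodes an RNA helicase that loads Piwi. That peak was repeated at rank 2436 in replicate 2 and 1923 in replicate 3.

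The Argonaute genes piwi, aub and AGO3 differed in how near they came. At piwi the strongest TSS entry had a signal value of 64.8 and ranked 5275 in the pool, 7954 in replicate 2 and 5556 in replicate 3, in a list whose last IDR rank is 4045 with a signal value of 79.5. At aub it ranked 19144 in the pool and 8359 in replicate 2, with no entry in replicate 3. AGO3, a gene of 135048 bp, had no TSS entry in any of the 3 lists, and the nearest IDR summit lay 675720 bp from its TSSs. tej, which encodes a Tudor-domain protein with a LOTUS domain, came closest of this group: its TSS entry ranked 3897 in replicate 2, inside the top 4045, 8261 in replicate 3 and 4917 in the pool. The helicase gene spn-E had its TSS entry at rank 8708 in the pool, 6254 in replicate 3 and none in replicate 2. krimp, a further Tudor-domain gene, had one in replicate 2 alone, at rank 8447.

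Among the genes of germline stem cells and sex, Sxl carried 3 peaks and ovo 1, while bam and zpg had none. Of all protein-coding genes 27.7% had a span peak and 19.5% a TSS peak. The spans of Sxl (25504 bp) and ovo (24657 bp) are long, a class where 42.3% of all genes had a span peak. Those of bam (4071 bp) and zpg (3667 bp) fall in the class of 3466 to 5533 bp, where 25.5% did. Sxl, the switch gene of sex determination and dosage compensation, has 4 annotated TSSs, the last 5170 bp downstream of the first. Its strongest peak (chrX:7096431-7096834, 214.9) lay 433 bp downstream of the TSS at 987 bp, and no other protein-coding TSS was nearer than 5667 bp. It ranked 852 in the pool, 1245 in replicate 2 and 733 in replicate 3. A second peak, in an intron 2365 bp from the 5′ end (136.3), was at ranks 2045 and 1963 in replicates 2 and 3. The third, 11304 bp from the 5′ end (87.8), ranked 2104 in replicate 2 and 5936 in replicate 3.

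ovo, a zinc finger factor gene of the female germline and of the epidermis, had its peak 1502 bp upstream of its first TSS (chrX:5046569-5046972, 126.0), in an intron of the noncoding gene lncRNA:CR44833. It ranked 2581 in replicate 2 and 1985 in replicate 3. bam, the differentiation switch of germline stem cells, had its strongest TSS entry at rank 7690 in the pool. The nearest IDR summit lay 2414 bp from the bam TSS and belongs to the promoter of the ribosomal protein gene RpS27, 9 bp from its TSS, with a signal value of 601.4. zpg, a germline gap junction gene, had a TSS entry at rank 4813 in the pool, 4210 in replicate 2 and 6187 in replicate 3, the nearest to the IDR list among the 25 genes without a TSS peak.

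Both regulators of the maternal to zygotic transition had 2 peaks. Their spans were 9673 bp (smg) and 19084 bp (zld). A span peak stood at 27.7% of all protein-coding genes and at 42.3% of those with spans of 5534 bp or more. smg, whose product clears maternal mRNA, had one of 105.4 between its inner TSSs, 160 bp from the nearer, at ranks 2683 in replicate 2 and 3047 in replicate 3. The other, 84.7, lay 78 bp upstream of the outermost TSS and 117 bp from that of CG5087, at ranks 4986 and 3434. zld encodes Zelda, the activator of the early zygotic genome. Its peaks were both distal: one of 119.9 in an intron 12793 bp from the nearest zld TSS, and one of 87.5 in intergenic sequence 1517 bp upstream. The upstream peak ranked 9032 in replicate 2 and 2893 in replicate 3, so it rests mainly on replicate 3. At the zld TSSs themselves the strongest pooled entry ranked 12631.

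**Figure D2:**
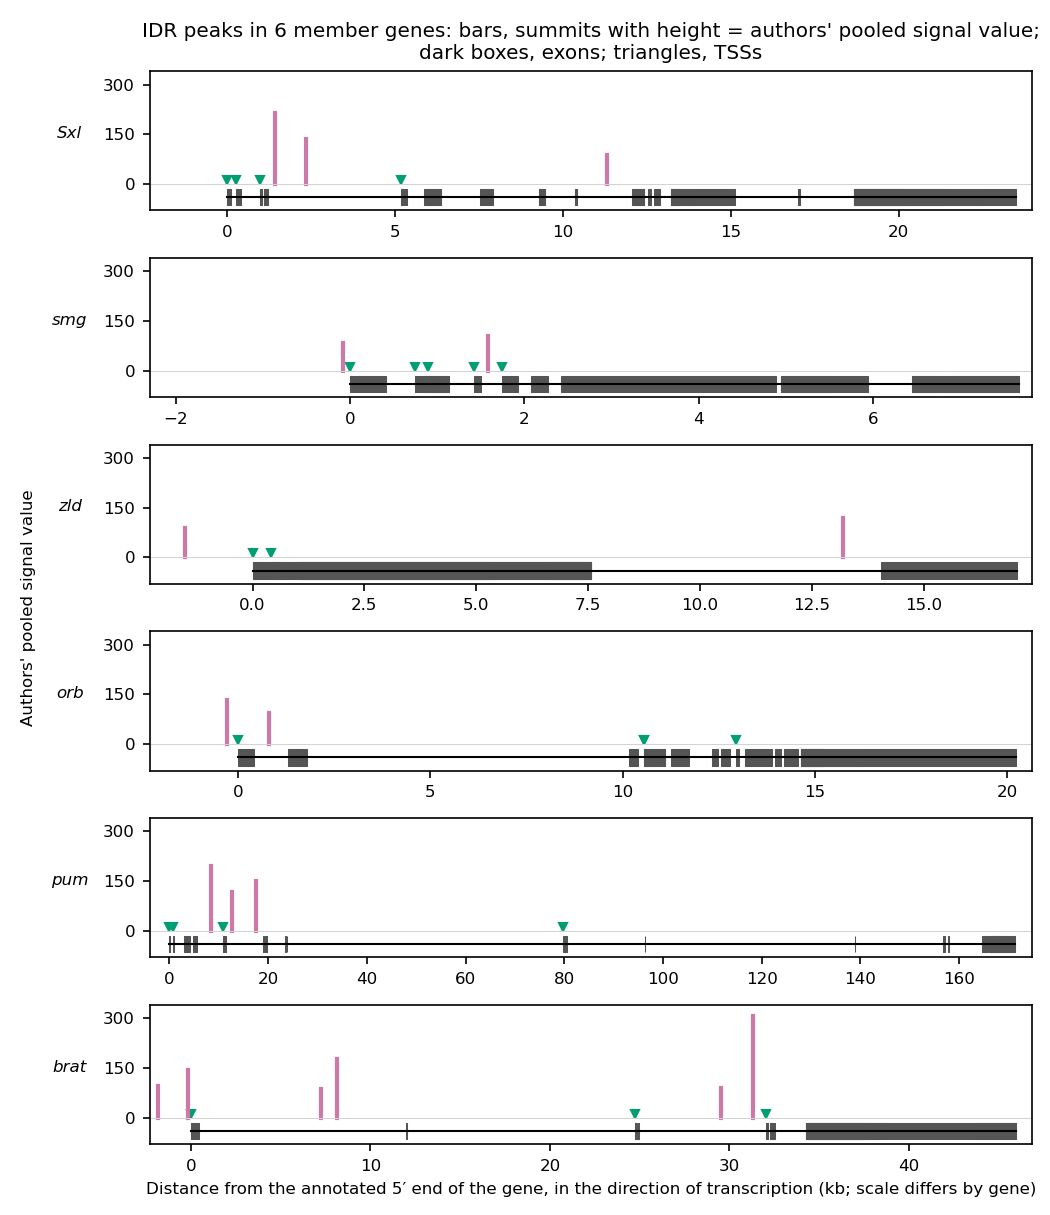
IDR peaks of the 6 genes with 2 or more, drawn against distance from the annotated 5′ end in kb (horizontal axis, own scale per gene); bars stand at the summits and their height is the authors' pooled signal value (vertical axis), dark boxes are exons and triangles TSSs. In pum the 3 peaks all lie in the first 17490 bp of a gene of 171340 bp, while in brat the 6 peaks form 3 pairs.

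Of the 5 mRNA transport and localisation genes, 4 had a span peak, 1 each, where 27.7% of all protein-coding genes and 42.3% of those with spans of 5534 bp or more had one. In this group only swa (4291 bp) has a shorter span, in the class of 3466 to 5533 bp, where 25.5% of all genes had one. egl and BicD encode partners that link mRNA to dynein. The egl peak (chr2R:23745309-23745468, 246.8) lay 212 bp upstream of its inner TSS, 1433 bp inside the gene, at ranks 548 in replicate 2 and 823 in replicate 3. No TSS of another protein-coding gene was within 2164 bp. BicD had its peak deep in an intron, 6735 bp from its only TSS (chr2L:17466278-17466681, 211.2), at ranks 749 and 935. It is the only one of the 28 summit windows with a PAR bZIP site, shown above, which starts 27 bp from the summit.

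swa, a factor for bicoid mRNA localisation, had the second strongest peak of all 33 genes (chrX:6366384-6366595, 301.4), at ranks 499 and 503 in replicates 2 and 3. The summit lay 798 bp upstream of swa in an intron of its neighbour Marf, a mitofusin gene, 557 bp from the nearest Marf TSS. Within 500 bp of the swa TSS there was no entry in any list. exu, another bicoid mRNA factor, had a peak 78 bp upstream of its first TSS (chr2R:20670959-20671362, 98.7) and 43 bp from that of galla-1, at ranks 2180 in replicate 2 and 4423 in replicate 3. Its window held the DRE word TATCGATA at 2 places. stau, which encodes a double-stranded RNA-binding protein, had none; its TSS entry ranked 4910 in the pool, 7559 in replicate 2 and 4278 in replicate 3.

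The 7 genes of translational control and mRNA storage held 12 of the 28 peaks, on 4 genes. Of all protein-coding genes 27.7% had a span peak, and 42.3% of those with spans of 5534 bp or more. In this group all spans but that of me31B (4832 bp) were that long. The spans of pum (173340 bp) and bru1 (140435 bp) are large parts of the joined member spans of 777004 bp. brat, a translational repressor of hunchback mRNA that is also a tumour suppressor in neural stem cells, had 6 peaks in a span of 47943 bp, or 12.5 per 100 kb. No other of the 33 genes had more than 3 peaks. The strongest (chr2L:19165074-19165252, 306.6) was also the strongest of all member peaks and ranked 604 in replicate 2 and 377 in replicate 3. It lay in an intron, 717 bp upstream of the innermost TSS. A peak of 144.2 stood 170 bp upstream of the first TSS, where Polr1D, an RNA polymerase subunit gene, starts 163 bp from the same summit. A peak of 95.3 farther upstream lay 38 bp from the TSS of AsnRS, an asparaginyl-tRNA synthetase gene, 331 bp from that of DCTN6-p27 and 1824 bp from that of brat. The other 3 were intronic, with signal values of 176.9, 90.2 and 85.8. The last of these ranked 2245 in replicate 3 and 23947 in replicate 2, the widest gap among the 28 peaks.

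pum, the RNA-binding partner of Nanos and Brat, had 3 intron peaks of 196.7 (chr3R:9228986-9229389), 152.0 and 117.9, between 8494 and 17490 bp from the 5′ end. Their ranks were 1038, 1460 and 4128 in replicate 2, and 986, 1809 and 1818 in replicate 3. The rest of this long gene had none, and the density over its span was 1.73 per 100 kb. orb, a CPEB-type activator of polyadenylation, had a peak of 131.9 that lay 297 bp upstream of its first TSS and 48 bp from that of Cdc16, an anaphase-promoting complex gene. Its second peak, of 94.9, lay 813 bp inside the first TSS and ranked 2303 in replicate 2 and 5085 in replicate 3. The cup peak (137.5) lay near the 3′ end of cup, 9902 bp from a cup TSS and 94 bp from that of CG34310, and inside both gene bodies. cup encodes an eIF4E-binding repressor.

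The other 3 genes of this group had no IDR peak in their span. For bru1, a repressor of oskar translation, this held over a body of 138435 bp with 6 TSSs, none of which had an entry in any list. BicC, a KH-domain protein gene, had its TSS entry at rank 12851 in the pool, and me31B, the DEAD-box helicase gene of maternal RNA granules, at rank 19299.

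**Figure D3:**
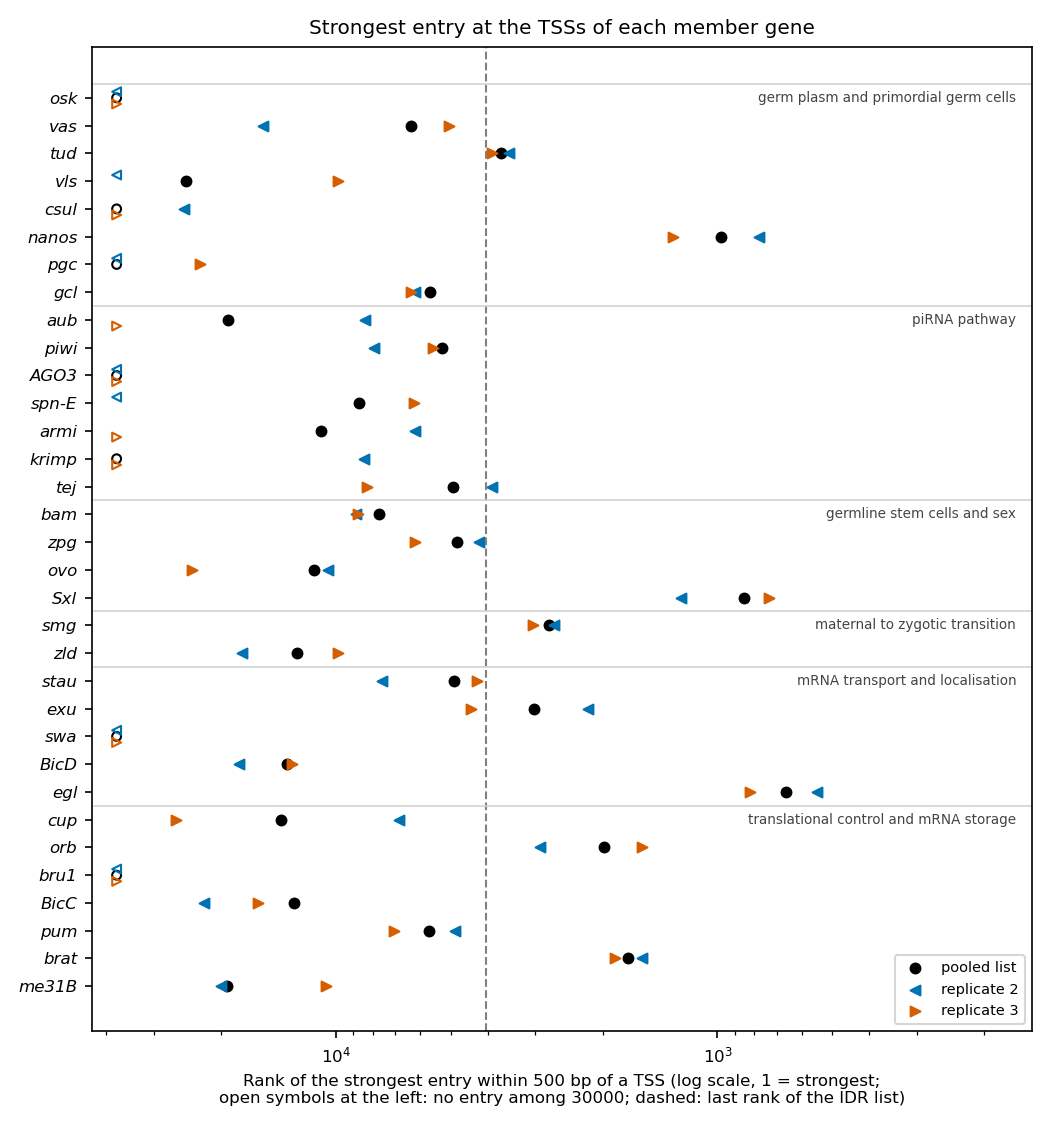
Rank of the strongest entry within 500 bp of any TSS of each gene (log scale, 1 is strongest, to the right) in the pooled list (circles) and in replicates 2 and 3 (triangles), grouped by role; open symbols mark no entry among 30000 and the dashed line is rank 4045. The piRNA genes all lie left of the line in the pool, and nanos, Sxl and egl lie farthest right.

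The relaxed lists hold the IDR peaks and weaker entries together. In the pooled one 26 of the 33 genes (78.8%) had a TSS entry, beside 53.4% of all protein-coding genes. Both replicate lists had one at 22 genes (66.7%, against 42.8%), and in the span at 30 (90.9%, against 65.3%), all but csul, AGO3 and krimp. Among genes with 1 TSS, 9 of 15 members (60%) and 34.5% of all such genes had a TSS entry in both lists. With 2 to 3 TSSs this was 9 of 13 (69.2% against 62.6%), and with 4 or more 4 of 5 (80% against 88.2%). For an entry anywhere in the span, 21 of 22 members with spans of 5534 bp or more had one in both lists (95.5%, against 87.1% of all such genes). With spans of 3466 to 5533 bp it was 8 of 10 (80%, against 66.4%). These lists end at 30000 entries and include background by construction, so a single entry is weak evidence of binding.

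Among the 4045 strongest entries of each replicate, a TSS entry stood at 9 genes in replicate 2 (27.3%, against 19.2%) and at 7 in replicate 3 (21.2%, against 19.4%). Both had one at 7 genes (21.2%, against 16.2%), namely tud, nanos, Sxl, smg, egl, orb and brat. exu and tej had one in replicate 2 only. All 28 member peaks had a summit within 200 bp in both relaxed lists, with a median shift of 13 bp in replicate 2 and 7.5 bp in replicate 3. Of these, 18 (64.3%) lay in the top 4045 of both replicates, beside 77.5% of all IDR peaks. The other 10 were split evenly, with 5 in the top of replicate 2 only and 5 in that of replicate 3 only. All 13 member peaks at or above the median IDR signal value of 130.1 repeated in both (99.5% over all such IDR peaks), and 5 of the 15 weaker ones did (55.4%). The signal values of the 28 peaks in the 2 replicates had a Spearman's rho of 0.623 across peaks, given as a description, and the 4019 IDR peaks found in both lists one of 0.745. The pooled signal values of the 28 peaks run only from 84.7 to 306.6, and those of the IDR list up to 2909. The 2 coefficients therefore cover unlike ranges, and their difference was not tested.

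**Figure D4:**
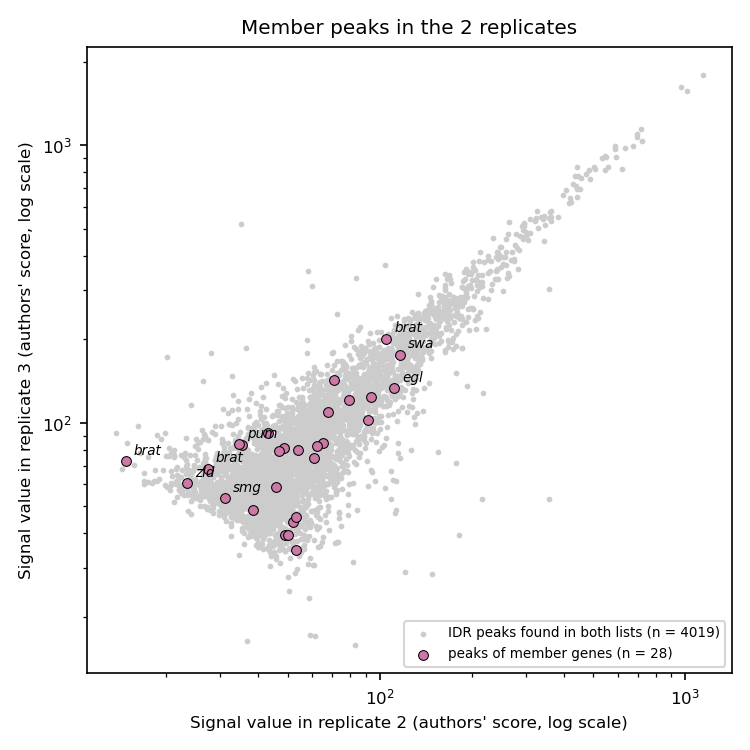
Signal value of each peak in replicate 2 (horizontal axis) and replicate 3 (vertical axis), both log scales of the authors' score in that list, for the 28 peaks of the 33 genes (large points) and the 4019 IDR peaks found in both lists (small grey points). Gene names mark the strongest 3 peaks and those outside the top 4045 of replicate 2; the brat point at 14.7 in replicate 2 and 72.8 in replicate 3 has the lowest replicate 2 value of the 28.

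The strength of the 28 peaks had a median close to that of the whole list. Their signal values ran from 84.7 to 306.6 with a median of 126.4, against 130.1 for the whole IDR list, whose highest value is 2909. In the upper quartile (above 196.1) were 7 of them. The 3 strongest, of brat, swa and egl, were also the only ones narrower than 404 bp, at 179, 212 and 160 bp. In the whole list 71.7% of upper-quartile peaks and 3.76% of the others were narrower than this.

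By position, 13 of the 28 summits (46.4%) were within 500 bp of some annotated TSS, against 55.3% of all IDR summits, but only 9 of them at a TSS of the member itself. The other 4, at vas, armi, cup and brat, were at the TSS of a neighbour or nested gene. Of the 9, 5 were also within 500 bp of the TSS of another protein-coding gene (nanos, smg, exu, orb and brat), beside 39.4% of the 2135 IDR summits near a protein-coding TSS. Introns held 14 summits (50%, against 31.7%), with those of swa and ovo in introns of other genes. Intergenic sequence held 1 (3.57%, against 10.7%), that of zld. No summit lay in a coding exon, where only 0.222% of all IDR summits lay. The assignment rule takes only summits in a gene body, in the 2000 bp upstream or near a TSS. All IDR summits follow no such rule, so these shares by position are unlike measures. Among the 16 members that share no TSS window with another protein-coding gene, 3 had a TSS peak (18.8%, against 11.5% of all such genes). Among the 17 that share one, 5 did (29.4%, against 37.2%).

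The median GC content was 35% in the 200 bp windows (27.5 to 57%) and 37% over all IDR windows (quartiles 33 and 41.5%). The words searched on both strands were the PAR bZIP sites TTACGTAA and TTATGTAA, the C/EBP site TTGCGCAA, the CRE TGACGTCA, the AP-1 site TGACTCA, the DRE TATCGATA, the GAGA repeat GAGAGAG, the Zelda site CAGGTAG, Motif 1 GGTCACACT and the E-box CACGTG, of which no 2 overlapped in the member windows. Only 4 of the 28 windows held any of them (14.3%), against 17.3% of the 4045 IDR windows and 20.9% of 19252 windows of the same length centred on protein-coding TSSs. The PAR bZIP sites were in 1 member window (3.57%), 1.95% of IDR windows and 1.31% of TSS windows. The GAGA repeat was in 2 (7.14%, against 3.86% and 4.65%) and the DRE in 1 (3.57%, against 4.94% and 6.44%). In 100 bp windows the GAGA repeat was in 0 member windows (1.21% of IDR windows). At 400 bp it was in 3 (10.7%, against 10.7% of IDR windows). With so few windows, shares of this size rest on single genes, and a missing word says only that these letters are not in the window.

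Further genes of the same pathways, put in 3 lists with earlier results known, gave 66 matched names. Of these 20 had a TSS peak (30.3%), to be read against 19.5% of all protein-coding genes, and 31 a span peak (47%, against 27.7%). These shares were not split by span length, number of TSSs or shared TSS windows. Of 27 other piRNA genes 5 had a TSS peak (18.5%). papi, whose Tudor-domain product acts in piRNA trimming, had the strongest (542.2), at ranks 123 and 116 in replicates 2 and 3. It was followed by the Tudor-domain gene Tdrd3 (152.8), cuff of the piRNA cluster transcription complex (120.6) and the Tudor-domain gene tapas (119.1). Of 20 oogenesis and germ plasm genes 9 had one (45%), led by bgcn, whose product works with Bam (234.9), the chromosomal kinesin gene nod (151.8), the fusome gene hts (150.9) and tsu of the exon junction complex (143.1). Of 19 genes of mRNA regulation 6 had one (31.6%): the leading ones were tral (414.9), whose product works with Me31B, the deadenylase genes Pop2 (283.7) and twin (167.5), and pAbp (167.9), the poly(A)-binding protein gene. Among the genes named here, Tdrd3, cuff, hts, tral, Pop2 and twin share a TSS window with another protein-coding gene. Of all genes that share one, 37.2% had a TSS peak. Whether these peaks lie closer to a neighbour was not tested.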

How the data were processed

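Peak lists on build dm6 were used as deposited. Per the text deposited with each library, the authors called a relaxed list from each replicate and from the pool against 1 control alignment and derived the IDR list from them; aligner, caller, IDR threshold and versions are not given among the sources. The deposited signal value is a score whose scale the caller sets, and it was compared only within a list. The deposited −log10 q is the same for all IDR peaks and decided nothing here. Read depth is unknown, so no counting interval is given. The dm3 lists were not used.

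Genes and TSSs came from Ensembl release 115 on the same assembly, without transposable elements. All dm6 peaks lay within the Release 6 arm lengths, and the IDR list equals the 4045 strongest pooled entries. Coordinates are 1-based. Ranks follow the signal value, and a replicate summit within 200 bp counted as the same peak. Window counting was tested on simulated summits with Python 3.11.15 and pandas 2.3.3.

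The 33 members, the role groups, the wider lists and the motif words were chosen with earlier results of these data known, the motif words after the files were read. All members are named; of the wider lists, up to 4 genes with the highest TSS signal value each. Neighbours are named where their TSS lies within 500 bp of a member's summit; others (Marf, pyd, RpS27, lncRNA:CR44833) were chosen after their values were seen. Of 67 names in them, 1 matched through a synonym and 1 stayed unmatched. Shares stand beside those of all protein-coding genes with no test. Alternatives changed the TSS window, the span, the overlap rule, the list and the motif window.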

Additional observations from a re-analysis of the deposited data

How the results depend on the processing

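The count of 8 genes with a TSS peak became 5 with a 250 bp window, which lost nanos, Sxl and orb, 5 among the 2023 peaks at or above the median signal value, which lost tud, smg and exu, and 3 when genes with a shared TSS window were left out. The background fell as well, to 16, 11.2 and 11.5%. From replicate 2 alone the count was 9, and from replicate 3 alone 7. The 16 genes with a span peak became 9 with the gene body alone (background 11%) and 9 among the peaks at or above the median (16.7%), and 17 and 14 in the lists of replicates 2 and 3. The 28 peaks became 16 and 13 under the same changes, and 27 and 24 in the replicate lists. The 7 genes with a TSS entry in the top 4045 of both replicates became 4 with a 250 bp window (background 12.9%), 13 in the top 8090 of each list (24.4%) and 22 in the whole relaxed lists (42.8%). Windows with any motif word numbered 2 at 100 bp (7.14%, against 8.26% of IDR windows) and 10 at 400 bp (35.7%, against 33.1%), in place of 4. Of 43 values under alternatives, 25 stayed within 1.5 times the reported one. These 25 include counts of single motif words that were 0 and stayed 0, such as those of the C/EBP, CRE and AP-1 sites. For such counts a ratio has no meaning, so the 25 overstate how stable the results were. Depth is unknown, so how far more reads would add peaks was not tested. No paired analysis was possible because there is only 1 group.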
